A study of Mus musculus with 6 samples.

Results

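A set of 10 genes of the Notch pathway was followed in cultured neural stem cells that had received PluriSIn#2 or its solvent. These were the receptors Notch1, Notch2 and Notch3, the ligands Dll1, Dll3 and Jag1, the transcriptional targets Hes1, Hes5 and Hey1, and the fringe enzyme Mfng. The genes were picked by symbol from a table of 24421 genes, and all 10 had reads and passed the filter on low counts. Both groups were primary cultures of the subventricular zone of C57BL/6 mice of postnatal day 60, kept in EGF and FGF2 at 20 ng/ml. The 3 treated libraries came from cells given 20 µM PluriSIn#2, an inhibitor of topoisomerase IIA per the series text, for 3 days, and the 3 control libraries from cells given DMSO. Grouping followed the titles, because a second label gives treated replicates 2 and 3 a compound number that differs from their titles. Results are therefore also given for treated replicate 1 alone where they differ. No label says whether replicates came from different cultures. The p-values hence reflect the spread among these libraries alone, and that spread may be technical.

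Notch is a receptor through which neighbouring cells instruct one another. A Delta or Jagged ligand on one cell pulls on the receptor of the next, ADAM and gamma-secretase proteases cut it, and the freed intracellular part joins RBPJ and Mastermind in the nucleus to switch on genes of the Hes and Hey families. These encode repressors that hold back proneural factors, and in the adult subventricular zone the pathway is known for keeping stem cells undifferentiated. Dll3 differs from the other ligands in acting mainly inside the cell that makes it, where it dampens signalling. Fringe enzymes add sugars to the receptor and so change which ligand it answers to.

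Upstream sequences were taken from RefSeq on GRCm38.p6 for the 7 members that matched, in 8 windows of 250 bases that end at an annotated start. They are shown for the target and the ligands that hold an RBPJ or E-box motif, to be read beside their changes below. Those letters were GTGGGAA, which the Notch partner RBPJ is known to bind, CAGCTG, an E-box of the kind bound by proneural factors, and CACNAG, the N-box of Hes proteins, each on both strands (CAGCTG reads the same on either). No GTGGGAA match overlapped a CAGCTG match. Hes1, Hey1 and Mfng had no upstream sequence there and were not searched. Of the 7 members searched, Hes5 alone held GTGGGAA. Its matches lie 226 to 220 bases upstream of its start on the opposite strand and 83 to 77 bases upstream on its own strand. Among all 32851 windows of this length 5.42% held that motif. The Hes5 window is chr4:154960673-154960922 on the plus strand, with both matches in capitals.
Hes5: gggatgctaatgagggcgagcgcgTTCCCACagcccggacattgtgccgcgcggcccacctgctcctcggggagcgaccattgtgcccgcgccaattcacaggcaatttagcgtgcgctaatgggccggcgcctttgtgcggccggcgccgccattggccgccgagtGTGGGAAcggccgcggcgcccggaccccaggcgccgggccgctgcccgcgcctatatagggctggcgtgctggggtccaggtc
CAGCTG was found in 3 of the 8 windows, those of Dll3, Jag1 and the upstream of the 2 Dll1 starts, and in 13.0% of all windows. In Dll1 it lies 132 to 127 bases upstream, in chr17:15376933-15377182 on the minus strand. For Dll3 (chr7:28301786-28301815, minus strand) and Jag1 (chr2:137116585-137116614, minus strand) GENCODE places the match inside an exon that starts further upstream, so 30 bases are shown. Capitals mark the E-box.
Dll1: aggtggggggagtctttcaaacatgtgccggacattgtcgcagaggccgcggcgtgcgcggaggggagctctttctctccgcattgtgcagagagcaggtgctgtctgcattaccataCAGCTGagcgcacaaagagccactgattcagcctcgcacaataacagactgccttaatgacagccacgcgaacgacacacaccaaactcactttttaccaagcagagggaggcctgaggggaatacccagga
Dll3: aaatataagactccggcatccagCAGCTGc
Jag1: ccgcgtttcatgCAGCTGatctgaaaggga
These E-box letters stand upstream of annotated starts of Dll1 and Dll3, which fell, and of Jag1, which rose slightly, as given below. Any link between the letters and these changes was not tested. CACNAG was found in the windows of Notch1, Notch2 and Notch3 and in 36.7% of all windows. Whether any of these letters is bound in these cells was not measured here.

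Libraries held between 16670962 and 19241869 counts. The treatment moved most of the transcriptome, with 82.6% of 14417 genes called at an adjusted p under 0.05 (Benjamini-Hochberg) by the quasi-likelihood test of edgeR, which gave every adjusted p here. In all, 41.7% of the tested genes were higher and 40.9% lower in PluriSIn#2. Of 10 listed markers of neural stem cells, all tested, 7 fell and 3 rose (median log2 fold change -0.28). Nes (-1.44), Egfr (-1.31) and Fabp7 (-1.23) fell the most, while Vim, the most abundant, Slc1a3 and Sox9 rose. Their summed level was 8370 to 8480 CPM (read counts scaled to a common library size with TMM factors) in DMSO and 7610 to 7640 CPM after treatment. The 8 listed proliferation genes fell, from summed levels of 3490 to 3550 CPM to 97.9 to 107 CPM, with Mki67 the most abundant.

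All 10 Notch members were called, 6 lower and 4 higher, against 82.6% of all genes. The DMSO and treated values of all 10 did not overlap, which was also so for 82.7% of all genes tested, so these counts do not set the members apart. The members' median log2 fold change was -0.71, beside 0.014 over all genes tested. Within each role the members did not move alike: Notch1 fell while Notch2 and Notch3 rose, Dll1 and Dll3 fell while Jag1 rose slightly, and Hes1 and Hes5 fell while Hey1 rose. Mfng fell. In bulk RNA, fewer cells of a type and less RNA per cell cannot be told apart.

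**Figure D1:**
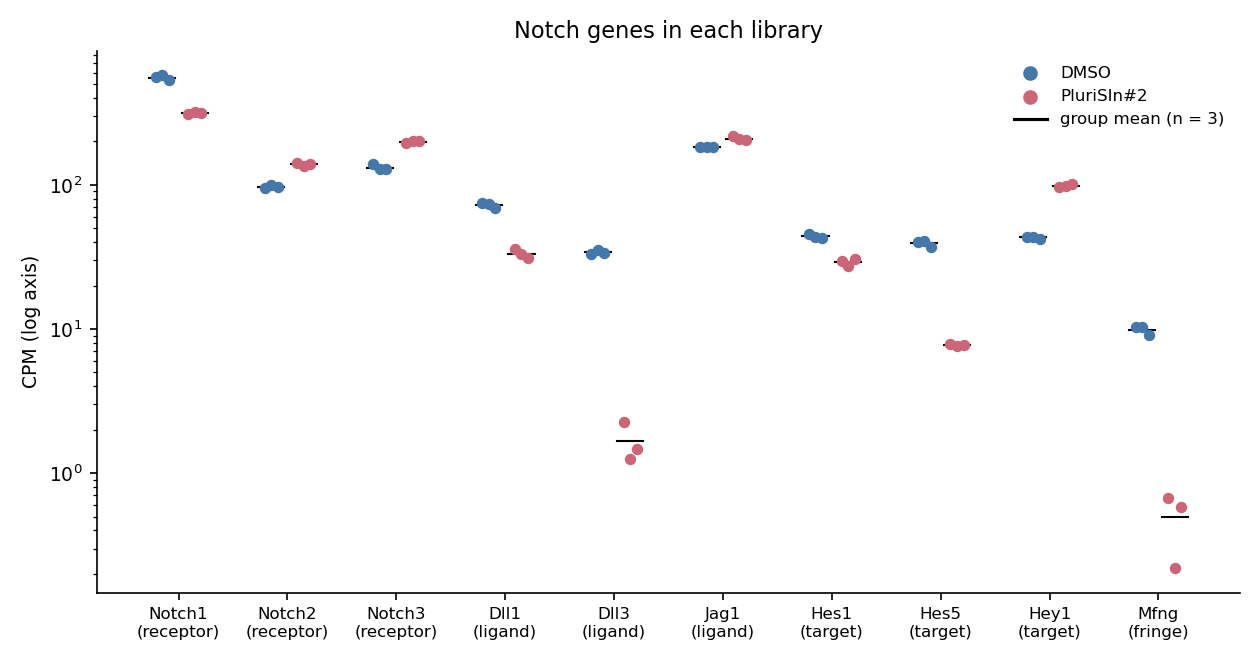
Level of each Notch gene in every library, in CPM on a log axis, with blue points for DMSO, red points for PluriSIn#2 and a black line for the mean of 3 libraries. In no gene do the groups overlap. Dll3 and Mfng lie lowest after treatment, at 1.26 to 2.26 and 0.219 to 0.677 CPM.

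Notch1, the receptor most tied to active neural progenitors, spans 58.8 kb of the minus strand of chromosome 2, from 26457903 to 26516663 (GRCm38 coordinates from GENCODE, here and for the other members). The DMSO libraries held 558, 573 and 532 CPM of it and the treated ones 311, 318 and 315 CPM. Every treated value was thus well below the lowest control, and the treated values lay closer together. The mean fell from 554 ± 21.0 to 314 ± 3.62 CPM (SD, n = 3 per group), a log2 fold change of -0.82 ± 0.025 SE (adjusted p = 6.56e-49 by edgeR). Notch2, on chromosome 3 from 98013527 to 98150361, stood at 95.2, 100 and 96.5 CPM in DMSO and at 141, 134 and 140 CPM in PluriSIn#2. All 3 treated libraries were higher, with a log2 fold change of 0.51 ± 0.035 SE (adjusted p = 7.52e-24 by edgeR). Notch3, on chromosome 17 from 32120820 to 32166852, is known both from neural stem cells and from the smooth muscle and pericytes of vessels. Its values were 139, 128 and 128 CPM in DMSO and 193, 201 and 201 CPM in PluriSIn#2. The log2 fold change was 0.60 ± 0.032 SE (adjusted p = 1.74e-30 by edgeR), again with every treated library above every control.

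Mural cell markers were read beside Notch3. Of 9 listed, 6 were tested, 3 rose, 2 fell and 1 was not called, and their summed level was 211 to 216 CPM in DMSO and 171 to 178 CPM in PluriSIn#2. That sum is led by the most abundant, Cspg4, which oligodendrocyte precursors also make. Cspg4 fell from 149 to 86.1 CPM (log2 fold change -0.79), and Mcam fell too (-0.65). The platelet-derived growth factor receptor gene Pdgfrb rose from 1.80 to 19.8 CPM, Rgs5 from 4.49 to 18.3 CPM and Tagln from 10.2 to 15.4 CPM. Kcnj8 and Abcc9, channel subunits that define pericytes, had 7 and 22 reads over the 3 treated libraries and 2 and 3 over the controls. The part of such cells in the rise of Notch3 was not tested.

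Per unit of gene length the receptors changed in makeup more than in sum. The authors' FPKM of the 3 receptors added up to 80.7 ± 2.58 in DMSO and 71.7 ± 0.630 in PluriSIn#2. Notch1 made up 68.9%, 70.3% and 69.0% of that sum in the control libraries and 46.5%, 46.8% and 46.2% in the treated ones. Notch3 went from 19.6% ± 0.923 to 35.0% ± 0.471, and Notch2 from 11.0% ± 0.348 to 18.5% ± 0.603. By these FPKM Notch1 thus remained the most abundant receptor in both groups, but by a smaller margin. The FPKM imply a length of 9661 bases for Notch1, against 14232 exonic bases in GENCODE. For Notch3 they imply 8102 bases against 8089. The order of Notch1 and Notch3 in PluriSIn#2 therefore depends on the length used. The ratio of Notch3 to Notch1 counts within a library, which no scaling of libraries can move, rose 2.66-fold, and that of Notch2 to Notch1 rose 2.51-fold. For both, as for the other 4 ratios tested here, the groups did not overlap and the exact permutation test gave a two-sided p of 0.1 (0.1 after Benjamini-Hochberg adjustment over the 6 ratios). That is the smallest p that 3 against 3 libraries allow, so the design cannot reach 0.05.

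Dll1 and Dll3 fell. Dll1, the ligand with which committed progenitors signal to stem cells, lies on the minus strand of chromosome 17 from 15367354 to 15376872. It stood at 74.7, 73.8 and 68.9 CPM in DMSO and at 35.6, 33.0 and 31.0 CPM in PluriSIn#2. The fall was 2.18-fold (log2 change -1.12 ± 0.052 SE, adjusted p = 3.13e-35 by edgeR). Dll3, on the minus strand of chromosome 7 from 28293553 to 28302238, fell much further. Its values were 33.3, 35.4 and 33.6 CPM in DMSO and 2.26, 1.26 and 1.46 CPM in PluriSIn#2, where they rest on 40, 23 and 25 reads. The mean went from 34.1 ± 1.11 to 1.66 ± 0.526 CPM, 20.5-fold lower (log2 change -4.36 ± 0.12 SE, adjusted p = 7.62e-52 by edgeR). Of the 14417 genes tested, 154 had a larger fall. With treated replicate 1 alone, the treated library with the most Dll3 reads, the log2 fold change was -3.92.

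Jag1, a Jagged ligand made by stem cells, astrocytes and endothelium, is on chromosome 2 from 137081456 to 137116644. It read 184, 183 and 183 CPM in DMSO and 217, 206 and 204 CPM in PluriSIn#2. This was the smallest change of any member, 1.14-fold higher (log2 change 0.19 ± 0.030 SE, adjusted p = 1.73e-08 by edgeR), and still without overlap. Relative to Dll1 in the same library Jag1 rose 2.49-fold, whereas Dll3 relative to Dll1 went to 0.105 of its control value. The FPKM of the 3 ligands summed to 67.3 ± 1.22 in DMSO and 48.7 ± 2.22 in PluriSIn#2. Jag1 made up 47.5% ± 0.751 of it in DMSO and 78.5% ± 0.828 after treatment, and Dll3 22.4% ± 0.587 and 1.57% ± 0.426.

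Oligodendrocyte precursor markers were read beside Dll1, Dll3 and Mfng. All 7 listed markers fell (median -3.54 on the log2 scale), where 40.9% of all genes tested were lower. Their summed levels were 2920 to 3050 CPM in DMSO and 2350 to 2420 CPM in PluriSIn#2. That sum is led by Olig1, the most abundant, which hardly moved (-0.069), while Sox10 fell by 4.77 and Pdgfra by 3.54 on the log2 scale. Neuroblast markers were divided, with 2 of 8 higher, 2 lower and 4 not called. Their summed level was 205 to 213 CPM in DMSO and 138 to 144 CPM in PluriSIn#2. It is led by Cd24a, the most abundant, which fell (-1.04). The part of either cell type, or of the falling proliferation genes, in the fall of Dll1, Dll3 or Mfng was not tested.

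Targets were divided. Hes1, on chromosome 16 from 30064384 to 30067796, is a repressor that many signals besides Notch also drive. It stood at 45.9, 43.5 and 43.0 CPM in DMSO and at 29.6, 27.5 and 30.5 CPM in PluriSIn#2 (log2 change -0.60 ± 0.059 SE, adjusted p = 8.53e-16 by edgeR). Hes5, on chromosome 4 from 154960923 to 154962371, is among the closest followers of Notch activity in neural stem cells. Of the targets, it alone had an upstream sequence to search, and it holds the RBPJ letters printed above. Its values were 39.9, 40.6 and 37.0 CPM in DMSO and 7.84, 7.68 and 7.79 CPM in PluriSIn#2. The fall was 5.04-fold and nearly equal in the 3 treated libraries (log2 change -2.33 ± 0.081 SE, adjusted p = 3.12e-44 by edgeR), and 438 of the genes tested fell by more. Hey1, on the minus strand of chromosome 3 from 8663359 to 8667256, encodes a related repressor that is prominent in vessels and also present in neural stem cells. It went the other way, from 43.6, 43.8 and 42.1 CPM to 96.4, 97.8 and 101 CPM, 2.28-fold higher (log2 change 1.19 ± 0.044 SE, adjusted p = 8.7e-42 by edgeR).

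Measured within a library, Hes1 rose 3.32-fold and Hey1 11.4-fold relative to Hes5. In DMSO the log2 ratio of Hey1 to Hes5 counts was between 0.11 and 0.19, close to equal counts, and in PluriSIn#2 it was between 3.62 and 3.69. By FPKM the sum of the 3 targets was 77.3 ± 2.60 in DMSO and 71.1 ± 1.90 in PluriSIn#2. Hes5 made up 38.1% ± 0.893 of it in DMSO and 8.61% ± 0.200 after treatment. Over the same libraries Hey1 went from 24.2% ± 0.314 to 63.0% ± 0.881 and Hes1 from 37.7% ± 0.866 to 28.4% ± 0.909. The sum was thus slightly lower in every treated library, while the share of Hes5 went down and that of Hey1 up.

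Endothelial markers, read beside Hey1 and Jag1, were low in both groups and higher after treatment. Of 10 listed, 8 were tested, 7 rose and 1 was not called. For this and the counts of markers that follow, 41.7% of all genes tested rose. Endothelial summed levels were 6.29 to 6.97 CPM in DMSO and 34.6 to 38.4 CPM in PluriSIn#2. The most abundant, Cdh5, was at 0.128 and 16.5 CPM, Pecam1 at 0.772 and 2.75 CPM and Cldn5 at 0.0935 and 1.65 CPM. Quiescent stem cell and astrocyte markers also rose, 10 of 10, from summed levels of 2680 to 2690 CPM to 13800 to 14100 CPM, with Apoe the most abundant. Ependymal markers rose in all 7 tested of 8, from 39.0 to 41.0 CPM in DMSO to 158 to 159 CPM, with Foxj1 the most abundant. Macrophage markers rose in all 8 tested of 10, from 2.25 to 2.51 CPM to 131 to 137 CPM. Lyz2 was the most abundant, and Trem2 had no read in DMSO. Apart from Lyz2, the tested macrophage genes had at most 6 reads in any DMSO library. So did Cdh5, Tie1, Cldn5, Ccdc153, Pifo and Dynlrb2 of the endothelial and ependymal lists. All of these passed the filter on low counts only through the treated libraries, so they could hardly have been seen to fall. The part of these cell types in the rise of Hey1 or Jag1 was not tested.

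**Figure D2:**
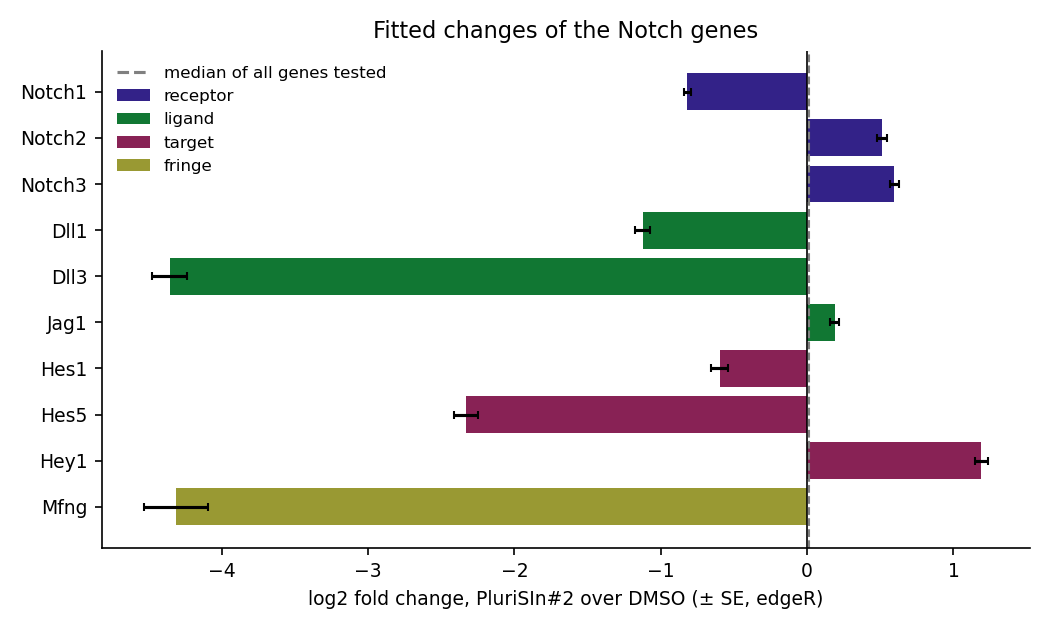
Fitted log2 fold change of PluriSIn#2 over DMSO for each Notch gene with its standard error from edgeR, coloured by role, with the median of all genes tested (0.014) as a dashed line. Receptors, ligands and targets each have members on both sides of 0, from Dll3 at -4.36 to Hey1 at 1.19.

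Mfng (manic fringe), on the minus strand of chromosome 15 from 78755882 to 78773475, was the least abundant member and fell about as far as Dll3. It stood at 10.2, 10.3 and 9.12 CPM in DMSO and at 0.677, 0.219 and 0.586 CPM in PluriSIn#2, where it had 12, 4 and 10 reads. The log2 fold change was -4.31 ± 0.22 SE (adjusted p = 1.11e-32 by edgeR), and 157 tested genes fell by more. Its relatives moved less. Lfng (lunatic fringe), which made up 81.2% ± 0.177 of the FPKM of the 3 fringe genes in DMSO and 71.5% ± 1.02 after treatment, fell from 242 to 154 CPM (log2 change -0.65 ± 0.030 SE). Rfng (radical fringe) rose from 40.3 to 56.3 CPM (0.48 ± 0.052 SE), and its share went from 14.7% ± 0.0837 to 28.2% ± 1.06. Mfng held 4.14% ± 0.257 of that sum in DMSO and 0.286% ± 0.142 in PluriSIn#2. The cells thus held mostly Lfng among fringes in both groups.

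**Figure D3:**
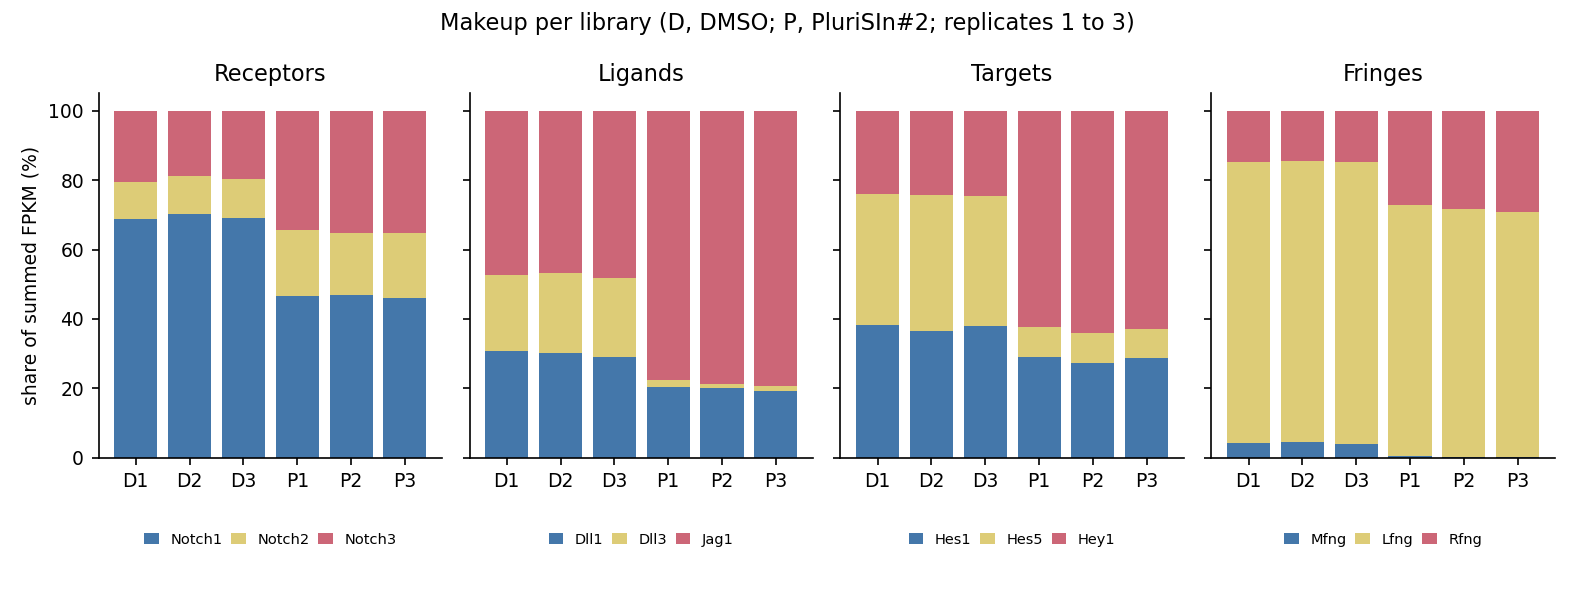
Share of each gene in the summed FPKM of the receptors, the ligands, the targets and the 3 fringe genes, as stacked bars in percent for DMSO replicates 1 to 3 (D1 to D3) and PluriSIn#2 replicates 1 to 3 (P1 to P3). Notch1 fell from a mean of 69.4% to 46.5%, Jag1 rose from 47.5% to 78.5%, and Hey1 rose from 24.2% to 63.0%, with replicates nearly alike.

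In order of FPKM, DMSO cells had Notch1 (56.0) highest, then Jag1 (32.0), Hes5 (29.5), Hes1 (29.1), Dll1 (20.2), Hey1 (18.7), Notch3 (15.8), Dll3 (15.1), Notch2 (8.86) and Mfng (5.16). Hes5 and Hes1 overlapped across the 3 libraries, as did Notch3 and Dll3. After PluriSIn#2 the order was Hey1 (44.8), Jag1 (38.2), Notch1 (33.3), Notch3 (25.1), Hes1 (20.2), Notch2 (13.2), Dll1 (9.73), Hes5 (6.13), Dll3 (0.771) and Mfng (0.270). No neighbours in the treated order overlapped. In this order Hey1 thus went from the sixth place to the first, and Hes5 from the third to the eighth. The order rests on the gene lengths behind the authors' FPKM, which for some members fall short of the exonic length in GENCODE. For Hey1 they imply 2249 bases against 3265, and for Jag1 5603 against 5827. Which of Hey1 and Jag1 leads after treatment therefore depends on the length used.

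The rest of the pathway was read from a list of 64 other genes, of which 60 were tested. In this list 22 rose, 28 fell and 10 were not called, a called share of 50 in 60 where 82.6% of all genes were called. Over all genes tested 41.7% rose and 40.9% fell, which is the background for the counts by role below. No role was tested as a set. Their median log2 fold change was -0.13. The other receptor, Notch4, known from endothelium, rose at a low level, from 1.95 to 3.93 CPM (adjusted p = 4.22e-06 by edgeR). Endothelial markers were higher in the same libraries, as were many other genes, and any part of such cells in the rise of Notch4 was not tested. Jag2 rose from 3.15 to 9.61 CPM (log2 change 1.61 ± 0.14 SE, adjusted p = 1.18e-17 by edgeR), and Dll4 was not called, at 3.68 and 3.21 CPM (adjusted p = 0.322 in edgeR). All 3 noncanonical ligands rose, although the call of Dlk2 (1.98 and 2.79 CPM) did not hold with DESeq2, with treated replicate 1 alone, or without DMSO replicate 3 or PluriSIn#2 replicate 1 or 2. They were led by Dlk1 from 2.53 to 12.1 CPM (2.26 ± 0.14 SE), while the abundant Dner went from 233 to 366 CPM (0.65).

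Among the ubiquitin ligases that let ligands be pulled into the sending cell, 3 fell and 1 rose. Neurl1b had the largest fall of the list, from 71.2 to 7.49 CPM (log2 change -3.25 ± 0.070 SE, adjusted p = 4.04e-60 by edgeR). Neurl1a (-1.72) and Mib1 (-0.67) fell too, and Mib2 rose from 48.8 to 88.0 CPM (0.85). Of 9 protease genes 4 rose, 3 fell and 2 were not called. Adam10, whose product cuts the receptor once a ligand pulls on it, fell from 208 to 117 CPM (-0.83 ± 0.032 SE). Psen2, a catalytic subunit of gamma-secretase, rose from 6.75 to 19.7 CPM (1.54 ± 0.10 SE).

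In the nucleus, Rbpj fell from 72.2 to 53.2 CPM (log2 change -0.44 ± 0.045 SE, adjusted p = 5.53e-15 by edgeR), and of the 8 genes of its activating complex 5 fell, 1 rose and 2 were not called. The Mastermind gene Maml1 fell from 40.7 to 28.2 CPM (-0.53), and Maml3 rose from 3.64 to 7.92 CPM (1.11). Corepressors fell in 8 of 10 cases, where 40.9% of all genes tested were lower. They were led by Tle4, a Groucho protein gene (135 to 83.7 CPM, -0.69). Tle1, at -0.14, was not called with library totals alone, in limma on FPKM, or without replicate 1 of either group. The 1 corepressor that rose, Cir1 (8.21 to 10.6 CPM, 0.36, edgeR adjusted p = 0.00297), was not called without PluriSIn#2 replicate 3 (adjusted p = 0.0665). Of 11 genes listed under the label inhibitor, 5 rose, 3 fell and 3 were not called. That label is loose, because it includes the Deltex genes Dtx1, Dtx2, Dtx3 and Dtx4, which need not inhibit the pathway. Dtx1 and Dtx3 were among those that rose, so these counts do not show more or less inhibition. Of the genes with this label that fell, Dtx4 was not called with library totals alone, in limma on FPKM or with treated replicate 1 alone. Nrarp, a feedback inhibitor that Notch itself switches on, fell from 67.2 to 11.3 CPM (-2.57 ± 0.065 SE, adjusted p = 1.54e-54 by edgeR), close in size to the fall of Hes5. The Deltex gene Dtx3 rose from 77.3 to 174 CPM (1.18 ± 0.036 SE).

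Of 6 other Hes and Hey genes 4 were tested. Hes6, whose product opposes Hes1, fell from 144 to 111 CPM (-0.38), Hes7 rose from 1.13 to 1.86 CPM, Hey2 fell from 1.74 to 1.02 CPM and Heyl was not called. The calls of Hes7 and Hey2, both rare, did not hold with DESeq2 or with treated replicate 1 alone. That of Hes7 was also lost without DMSO replicate 3 or PluriSIn#2 replicate 2, and that of Hey2 without PluriSIn#2 replicate 3. Hes2 and Hes3 had at most 5 reads in either group. Among 6 proneural genes 4 were tested. Insm1, a factor of newly committed neuronal progenitors, fell from 20.6 to 4.29 CPM (log2 change -2.26 ± 0.11 SE, adjusted p = 2.49e-34 by edgeR). Neurod1 rose from 1.32 to 4.31 CPM and Neurog2 from 0.924 to 1.52 CPM, both at low levels. Neurog2 was not called by DESeq2, or without DMSO replicate 1 or 3 or PluriSIn#2 replicate 1 or 2. Neurog1 had no read.

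**Figure D4:**
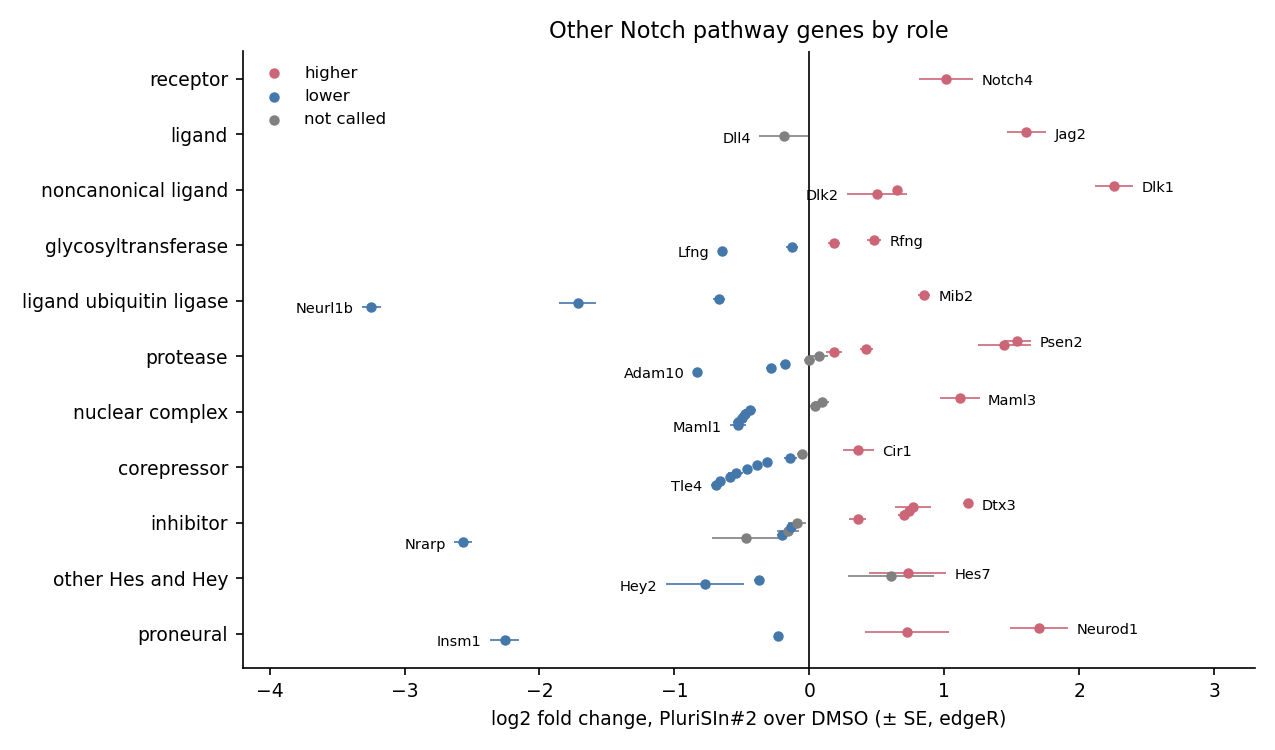
Fitted log2 fold change of PluriSIn#2 over DMSO, with standard errors from edgeR, for the 60 tested genes of the wider Notch pathway, in rows by role and coloured by call; the lowest and highest gene of each row is named. Neurl1b (-3.25), Nrarp (-2.57) and Insm1 (-2.26) lie farthest left and Dlk1 (2.26) farthest right, while the nuclear complex and corepressors sit mostly just below 0.

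Genes most like Notch1 and Hes5 were sought among 11036 other genes averaging at least 5 CPM, by the Euclidean distance over the 6 libraries between log2 CPM values centred on each gene's DMSO mean. Nearest to Notch1 were Ap1m1 (distance 0.0395, log2 fold change -0.83), Dicer1 (0.0636, -0.82) and Rab3b (0.0641, -0.83). For Hes5 they were Shc4 (0.105, -2.32), Klf10 (0.117, -2.28) and Osbpl10 (0.132, -2.28). With 2 groups of 3 libraries this measure mostly reads the size of the treatment difference.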

How the data were processed

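RNA was sequenced from 3 DMSO and 3 PluriSIn#2 libraries. The tools STAR, HTSeq and DESeq and the build mm10 are named in the submitters' processing notes. For their versions, the annotation and the strand setting, nothing is stated: not given in the sources used here. Whole read counts make up the deposited count table, per gene symbol and not normalized. The authors' FPKM table gives values per gene length and library total, without the composition factors used for CPM here. For each member the gene length implied by FPKM and counts was equal across libraries within 0.247%. Gene names that had turned into dates there (25) were left out.

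The analysis of counts used edgeR 4.0.16 in R 4.3.3: filterByExpr, TMM factors (0.975 to 1.03), glmQLFit and glmQLFTest on all genes with a single term for the group, two-sided, Benjamini-Hochberg adjustment over 14417 genes, threshold 0.05. A gene said to rise or fall passed this threshold. SE is the size of the log2 fold change divided by the square root of F. Ratios of counts used a pseudocount of 0.5. Chi-square per degree of freedom was 1.56 to 2.22 between replicates, so replicates differed beyond sampling noise. The script was tested on simulated data.

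The members, gene lists and tests were chosen with earlier results of these data known. Named were the members, Rbpj and Nrarp, the called gene with the largest rise and fall of each role among those averaging at least 5 CPM, the most abundant marker of each cell type, markers with no read in a group, and the 3 genes nearest to Notch1 and Hes5. Others were named after their values were seen. Values of some genes that the lists or the naming rule hold are not reported here. Exons of Notch1, Notch2, Notch3, Dll1 and Hes5 overlap other GENCODE genes (release M21, GRCm38, the same build as mm10) that the count table does not list, on the opposite strand except at Notch2, and their reads may be mixed. Alternatives were DESeq2 1.42.0, limma 3.58.1, other scalings and filters, a replicate block and left-out libraries.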

Additional observations from a re-analysis of the deposited data

How the results depend on the processing

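All 10 members kept their direction and their call under the 14 alternatives run: library totals alone, RLE size factors, DESeq2, no filter on low counts, a filter at 1 CPM, the replicate block, each library left out, treated replicate 1 alone, and limma on log2(FPKM + 1). Jag1, the smallest change, ranged from 0.16 to 0.26, Hes5 from -2.38 to -2.10 and Hey1 from 1.16 to 1.26. Dll3 and Mfng were -3.19 and -2.28 on the log2(FPKM + 1) scale, where the pseudocount exceeds their mean treated levels, and ran from -4.64 to -3.92 and from -4.62 to -3.85 otherwise. Library totals alone moved the median log2 fold change of all genes by 0.0693 and split the wider pathway list into 25 higher and 25 lower. Of the 50 calls in that list, 41 held with their direction under all 14 alternatives; the 9 others (Dlk2, Pofut1, Poglut1, Cir1, Tle1, Dtx4, Hes7, Hey2 and Neurog2) were lost under at least 1, with no called gene changing direction.

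Deviations of same-numbered libraries hardly correlated (0.0134, 0.0293 and -0.0025). Treated replicates 1 and 2 correlated best with the control of their own number, and replicate 3 did not. With all correlations this small, the check cannot tell whether same-numbered samples share more than a number. With the replicate block 11851 genes were called, against 11915 without it, 10 of them members and 50 in the wider pathway list in both fits. The Dll3 to Dll1 ratio was -2.88 on the log2 scale with treated replicate 1 alone, against -3.25. Mfng rests on 26 treated reads, which limits its precision.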
